A study of Mus musculus with 2 samples.

Results

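Mast cell and basophil granule genes are the 10 genes Cpa3, Cma1, Mcpt4, Mcpt8, Tpsb2, Tpsab1, Hdc, Fcer1a, Ms4a2 and Prss34, taken as every probe set that the platform annotation names for 1 gene only with one of these symbols. They had 12 probe sets among 45101 on the array and covered 9 of 18193 genes measured. No probe set carried Prss34 as its only gene, so it has no value here. The samples were a culture of miR-223 knockout neutrophils and a culture of wild-type neutrophils, both grown from blood-forming progenitors of male C57BL/6 mouse bone marrow. Both cultures grew for 6 days with G-CSF, the cytokine of granulocyte production, and SCF, which activates the receptor Kit, and both received cycloheximide, a blocker of translation, at 100 ug/ml during the final 8 min. A single Affymetrix 3' array was run per genotype, and the labels do not say how many animals gave each culture. The differences therefore lack a replicate check, no test could be run across animals or cultures, and precision is limited by the number of arrays.

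Mast cells and basophils carry the high-affinity receptor for IgE and store histamine and proteases in granules that are released when bound IgE is cross-linked. Mast cell granules hold chymases, tryptases and carboxypeptidase A packed on the proteoglycan serglycin, whereas mouse basophils are known for Mcpt8 and Prss34. Both lineages arise from marrow progenitors under GATA transcription factors, and SCF acting through Kit is the main growth factor of mast cells. The cultures were labelled as neutrophils, and these genes were read as markers of other cells that such a culture could hold. In RNA from a whole culture, fewer cells of a type and less RNA per cell cannot be told apart.

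The RNA that the knockout removes is shown because the genotype rests on it. Mature miR-223-3p, encoded on the X chromosome (GRCm38.p6, chrX:96242884-96242905, plus strand), has its seed, bases 2 to 8, in capitals in the RefSeq sequence that follows. The annotation gives the miR-223 gene no probe set, so its loss was not checked here.
miR-223-3p: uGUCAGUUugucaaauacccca

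All measured mast cell and basophil granule genes were lower on the miR-223 knockout array. The 9 genes stood between -0.76 and -0.12, with a median of -0.53, against medians of -0.004 over all 18193 measured genes and -0.0004 over the 11006 expressed ones. These values are differences, knockout minus wild type, of log2(intensity + 16) on 1 probe set per gene, the brightest. A gene was called expressed when its mean over both arrays reached 5.64 on this scale, the median over all probe sets. Of all measured genes 51.2% were lower, and of expressed genes 50.1%, so that a negative sign alone is common. A difference of at least 0.5 was not: 5 of the 9 members were lower by that much, against 0.379% of all measured genes and 0.591% of expressed genes. None of the 9 was lower by 1 or more (2-fold), as 0.0275% of all measured genes were. The members were chosen with these differences already known, so the counts describe them and test nothing.

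**Figure D1:**
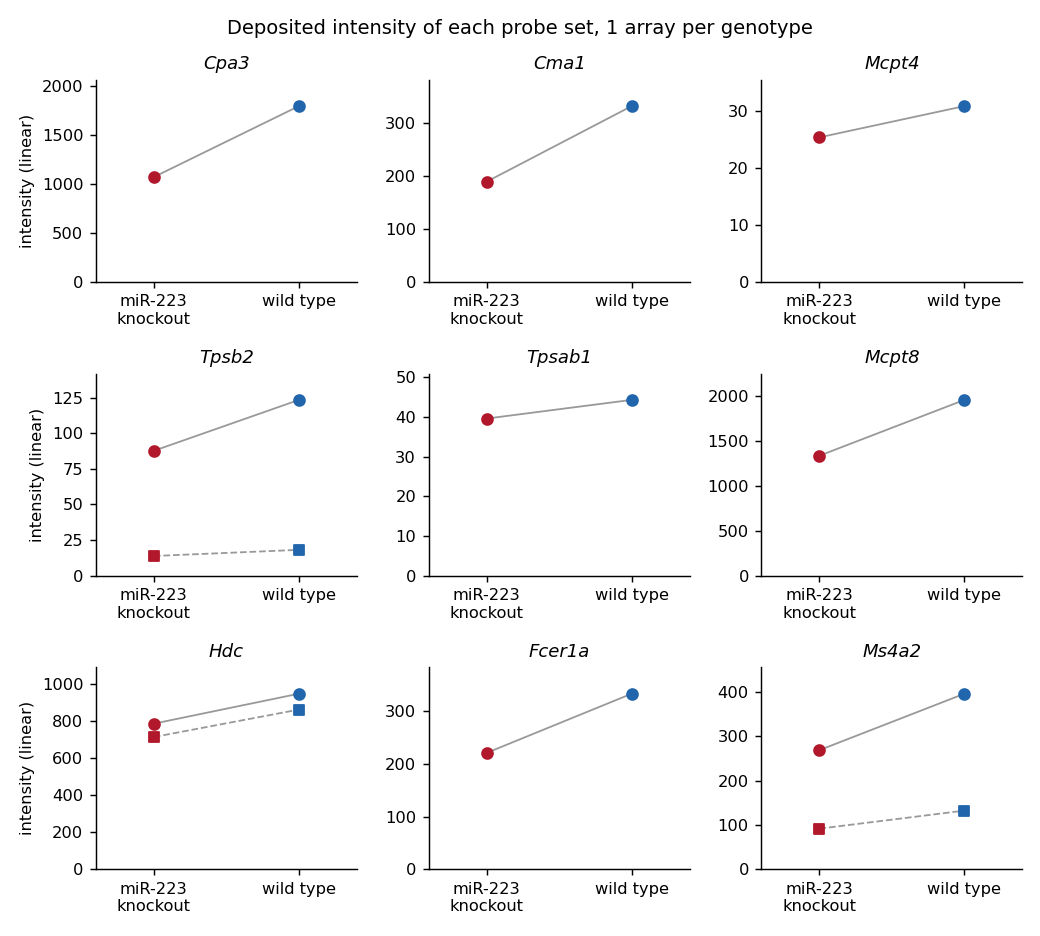
Deposited linear intensity (vertical axis, starting at 0, on a separate scale for each gene) of every probe set of the 9 measured genes on the miR-223 knockout array (red, left) and the wild-type array (blue, right); circles mark the probe set used for the gene, squares the second one, and each point is 1 array. All 12 lines are lower on the knockout side, steeply for Cma1 (189 against 331) and slightly for Tpsab1 (39.6 against 44.3).

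The proteases of mast cells showed both the largest and the smallest differences. Cpa3, carboxypeptidase A of mast cell granules (chromosome 3), had an intensity of 1071 on the knockout array and 1796 on the wild-type array. The knockout value was thus 59.6% of the wild-type one, a difference of -0.74. Among all probe sets other than controls, that of Cpa3 stood at percentile 93.3 on the knockout array and 96.3 on the wild-type array, a measure that does not depend on the scale of either array. Of the 1382 genes at least as bright as Cpa3, 4 were as low or lower, Cpa3 included.

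Cma1, a chymase of connective tissue mast cells (chromosome 14), had 189 on the knockout array and 331 on the wild-type array, or 57.0% of the wild-type intensity. Its difference of -0.76 was the largest among the members, although with a pseudocount of 64 it was -0.65, against -0.71 for Cpa3. It placed Cma1 at rank 20 from the low end of the 11006 expressed genes. Its percentile was 74.8 on the knockout array and 82.1 on the wild-type array. Mcpt4, the other chymase of mouse connective tissue mast cells, is a close relative of Cma1 in the same cluster of chromosome 14. Mcpt4 was not expressed by the cut used, with 25.4 on the knockout array and 30.9 on the wild-type array, a difference of -0.18.

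The tryptases, trypsin-like proteases stored as tetramers and encoded on chromosome 17, differed less. Tpsb2 had 87.8 on the knockout array and 124 on the wild-type array, a difference of -0.43 and 71.0% of the wild-type intensity. Its second probe set was dim, at 13.8 on the knockout array and 18.1 on the wild-type array, and stood at -0.20. Tpsab1 had 39.6 on the knockout array and 44.3 on the wild-type array. Its difference, -0.12, was smaller than 0.144, the pooled SD among expressed probe sets within a gene (5017 genes), which is no replicate error. C57BL/6 mice are known to carry a defective Tpsab1 allele, which is background and was not examined here.

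The basophil protease was represented by Mcpt8, whose protein is the granule marker by which mouse basophils are commonly identified. Mcpt8 (chromosome 14) had 1332 on the knockout array and 1953 on the wild-type array. The knockout intensity was 68.2% of the wild-type one, a difference of -0.55. Its percentile was 94.7 on the knockout array and 96.6 on the wild-type array. Of 1167 genes at least as bright, 4 were as low or lower, Mcpt8 included.

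Histamine synthesis was represented by a single gene, with a smaller difference than the proteases Cpa3, Cma1 and Mcpt8. Hdc, histidine decarboxylase (chromosome 2), makes histamine from histidine and is also known to be transcribed in immature neutrophil-lineage cells of mouse marrow. Its probe set had 787 on the knockout array and 949 on the wild-type array, and its second one 715 on the knockout array and 863 on the wild-type array. These were 83.0% and 82.8% of the wild-type intensity, with differences of -0.26 and -0.27. Leaving Hdc out, a choice made after its values were seen, the other 8 members had a median of -0.54.

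The IgE receptor chains differed by nearly the same amount as each other. Fcer1a, the alpha chain that binds IgE (chromosome 1), had 220.3 on the knockout array and 332 on the wild-type array, a difference of -0.56. Ms4a2, the beta chain that amplifies the receptor's signal (chromosome 19), had 269 on the knockout array and 396 on the wild-type array, a difference of -0.53. The second Ms4a2 probe set gave 91.9 on the knockout array and 133 on the wild-type array, a difference of -0.46. Fcer1g, the gamma chain that neutrophils, monocytes and other cells also use for other Fc receptors, was higher, at 5158 on the knockout array and 4634 on the wild-type array (0.15). The alpha and beta chains were thus lower and the shared gamma chain was slightly higher.

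The larger differences were those of brighter members, with Hdc as the exception. The 6 members with a mean of 8 or more on the log2 scale (Cpa3, Cma1, Mcpt8, Hdc, Fcer1a and Ms4a2) had a median of -0.55, and 5 of them were lower by at least 0.5, against 0.49% of the 6127 genes that bright. The threshold of 8 was set after the values were seen. The dimmer Tpsb2, Tpsab1 and Mcpt4 stood between -0.43 and -0.12, on a scale where the pseudocount shrinks dim genes most. With a pseudocount of 1 the difference was -0.27 for Mcpt4 and -0.16 for Tpsab1. Just inside the threshold of -0.5 was Ms4a2 and just outside it was Tpsb2.

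**Figure D2:**
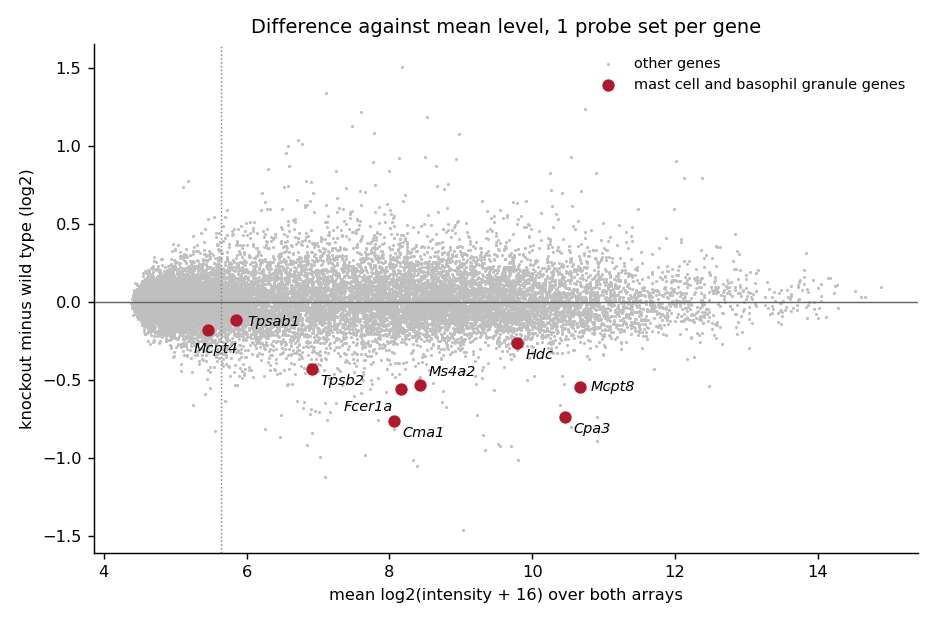
Difference, knockout minus wild type, of log2(intensity + 16) (vertical axis) against the mean of both arrays on that scale (horizontal axis) for 18193 genes, 1 probe set each; red points are the 9 members, grey points other genes, and the dotted line marks the expression cut of 5.64. Cpa3 (-0.74) and Mcpt8 (-0.55) lie below the grey band in the bright part of the range, and Tpsab1 (-0.12) and Mcpt4 (-0.18) lie inside it.

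Second probe sets gave the same direction. Of the 9 measured members, 3 had 2 probe sets, namely Tpsb2, Hdc and Ms4a2, and 6 had 1. All 12 probe sets were lower on the knockout array, against 48.7% of the 34945 probe sets named for 1 gene. Probe sets of a gene read the same RNA on the same arrays, so this checks the probes and not the genotypes. The sets used for Cma1, Mcpt4, Tpsb2 and Tpsab1 and both sets of Hdc have suffixes that mark sequence shared between transcripts. Chymase and tryptase genes are close copies of each other, and cross-hybridization among them was not tested.

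The scale of the arrays bears on every value. Spike-in controls, RNAs of foreign origin meant to be added in equal amounts, were lower on the knockout array by a median of 0.17 for 24 poly-A probe sets, all 24 of them lower, and 17 of 18 hybridization probe sets were lower as well. Centred on the poly-A controls, the member median was -0.36. On that scale 2 members, Cma1 (-0.59) and Cpa3 (-0.56), were lower by at least 0.5, and 8 of 9 remained lower. Those 8 include Mcpt4 at -0.007 and Hdc at -0.09. The shares of all genes given above hold for the deposited scale, and the shares on the centred scale were not computed. Tpsab1 then stood at 0.06. The 3' minus 5' signal of beta-actin, a mark of RNA integrity, was 0.25 on the knockout array and 0.33 on the wild-type array on the log2 scale. The part of these technical values in the member differences was not tested.

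**Figure D3:**
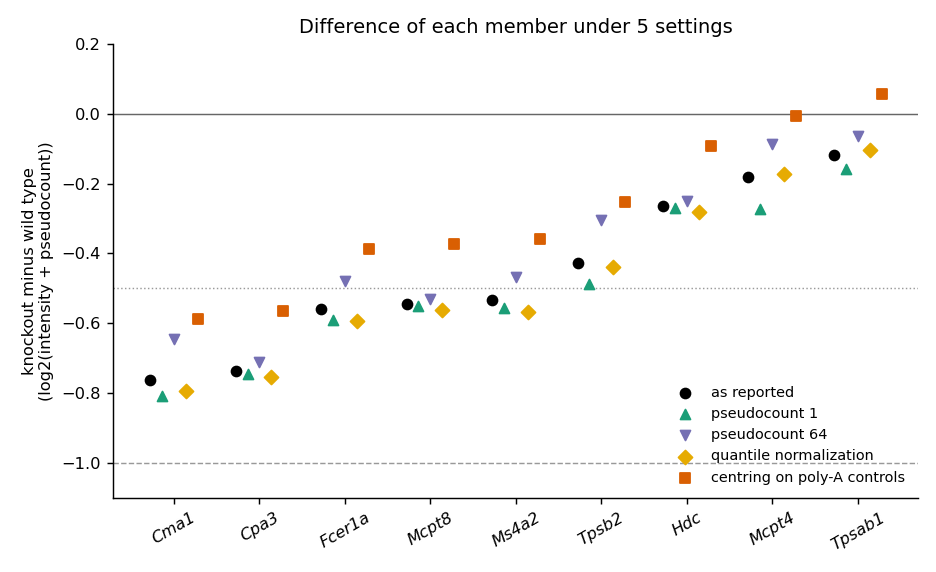
Difference of each member (vertical axis, log2 scale, knockout minus wild type) as reported and under 4 other settings marked by symbol and colour; the dotted line marks -0.5 and the dashed line -1. Centring on the poly-A controls moves every gene up by 0.17 and takes Tpsab1 to 0.06, while Cma1 and Cpa3 stay below -0.5 under every setting drawn.

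Upstream sequences were read for the members because their differences run the same way. The promoter table of RefSeq (GRCm38.p6) held 8 of the 10 genes, all but Tpsb2 and Tpsab1. The motif GATAA, the core bound by GATA factors, was searched on both strands (as GATAA or TTATC) in the 250 bases before each listed start. It occurred in 6 of 8 member windows, in Cma1, Cpa3, Fcer1a, Mcpt4, Ms4a2 and Prss34, and in 22.6% of all 32851 windows. Of these genes Prss34 has no value here and Mcpt4 was not expressed. CANNTG, the E-box of basic helix-loop-helix factors such as Mitf and Tal1, occurred in 6 of 8 member windows and in 66.2% of all windows. TGTGGT, the core bound by Runx factors, searched also as ACCACA, occurred in 4 of 8 member windows and in 14.0% of all windows. The Hdc and Mcpt8 windows, which held no GATAA, lie wholly or mostly within the annotated extent of their genes. Those of Cpa3, Fcer1a and Ms4a2 overlap their genes in part. A match in this window is a run of letters and no shown binding site.

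The windows of the 4 members with the largest differences that hold GATAA are printed 5' to 3' on the gene's strand, trimmed to bases outside the annotated gene, with each GATAA or TTATC in capitals. Each holds 1 match, forward in Cpa3 and reverse in the others.
Cpa3, chr3:20242210-20242431, minus strand: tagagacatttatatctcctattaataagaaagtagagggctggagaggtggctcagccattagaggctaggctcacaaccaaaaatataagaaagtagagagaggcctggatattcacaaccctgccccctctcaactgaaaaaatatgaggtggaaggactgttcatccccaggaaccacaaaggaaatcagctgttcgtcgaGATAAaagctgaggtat
Cma1, chr14:55944676-55944925, minus strand: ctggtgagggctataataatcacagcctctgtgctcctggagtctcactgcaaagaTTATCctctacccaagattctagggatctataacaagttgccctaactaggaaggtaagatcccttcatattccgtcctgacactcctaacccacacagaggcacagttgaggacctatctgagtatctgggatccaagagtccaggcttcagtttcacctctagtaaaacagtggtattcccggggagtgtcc
Fcer1a, chr1:173227233-173227479, minus strand: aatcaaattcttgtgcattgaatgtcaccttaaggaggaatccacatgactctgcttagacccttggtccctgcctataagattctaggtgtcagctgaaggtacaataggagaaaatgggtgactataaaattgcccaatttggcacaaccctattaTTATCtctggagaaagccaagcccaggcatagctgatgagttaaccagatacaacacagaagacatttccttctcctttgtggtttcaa
Ms4a2, chr19:11623791-11623969, minus strand: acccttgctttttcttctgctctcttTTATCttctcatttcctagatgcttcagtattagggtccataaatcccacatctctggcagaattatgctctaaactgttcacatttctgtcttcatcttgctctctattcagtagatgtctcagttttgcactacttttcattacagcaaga

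From the match to the gene-side end of the printed window lie 12 bases in Cpa3, 84 in Fcer1a, 148 in Ms4a2 and 189 in Cma1, so the matches do not share a position. Among the factors known to act on such elements, Gata2, required for mast cell and basophil development, had 163 on the knockout array and 243 on the wild-type array. Its difference was -0.53, with -0.20 on its other probe set. Gata1 had 90.2 on the knockout array and 108 on the wild-type array (-0.22). Mitf, the factor that drives many mast cell genes together with Gata2, stood at 0.03 on its expressed probe set. Tal1, the other E-box factor named above, was higher, with 400 on the knockout array and 345 on the wild-type array (0.20). Runx1 stood at 0.09, with expressed probe sets from -0.17 to 0.17. The part of these factors in the member differences was not tested.

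Expressed genes around the members had a median of 0.02. For each of the 10 genes the 5 nearest measured genes on each side were taken in the RefSeq gene order, which gave 65 distinct genes that are no members, 32 of them expressed. They ranged from -0.30 to 0.58, with 15 lower and 17 higher, against 50.1% of all expressed genes lower. Of the 32, 0 were lower by at least 0.5, against 0.591% of all expressed genes. At that share 0 of 32 is unremarkable and sets the neighbours apart from no other genes. Next to Cpa3 lie Gyg, the glycogenin gene (0.11), and Cpb1, another carboxypeptidase gene, which was not expressed. In the chymase cluster Mcpt2, a mucosal mast cell protease between Cma1 and Mcpt4, stood at -0.30, near the expression cut at 29.4 on the knockout array and 39.9 on the wild-type array. Ctsg, the neutrophil granule protease cathepsin G and the neighbour of Mcpt8 on the other side, stood at 0.12, with 17535 on the knockout array and 16155 on the wild-type array. Ms4a3 (0.08) and Ms4a6d (0.33), relatives of Ms4a2 beside it on chromosome 19, were higher, as was Oosp1 (0.58).

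**Figure D4:**
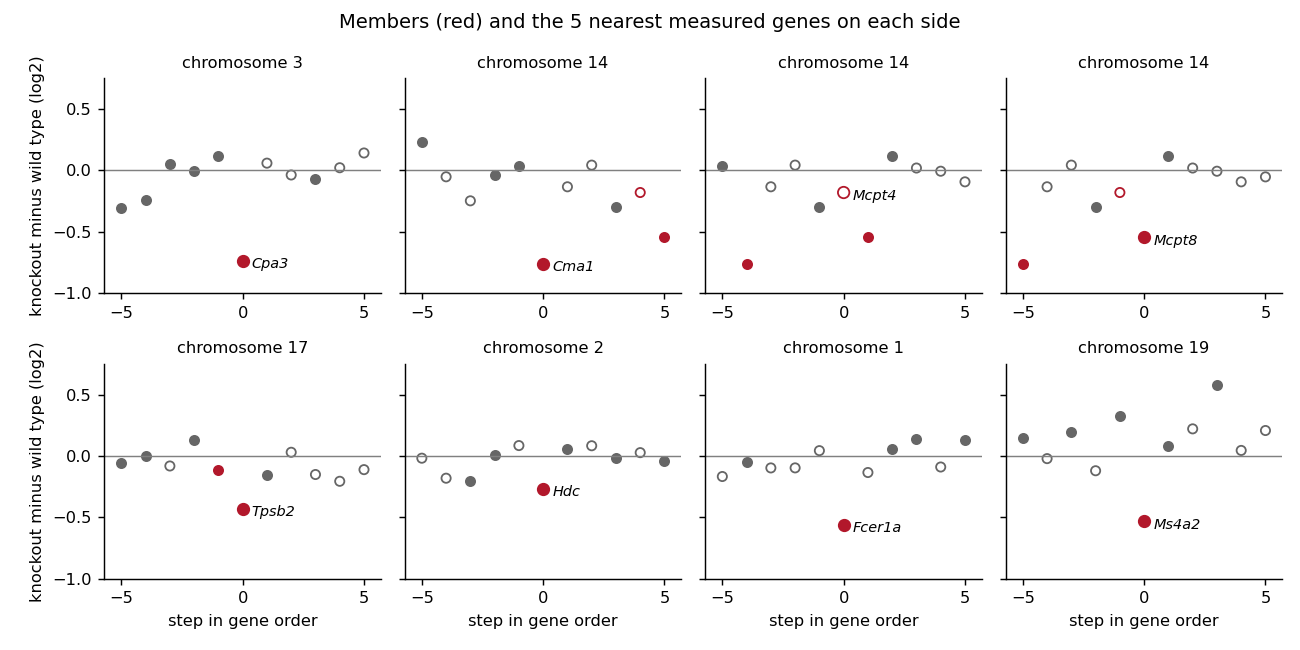
Difference (vertical axis, knockout minus wild type, log2(intensity + 16)) of 8 members and of the 5 nearest measured genes on each side, by step in gene order along the chromosome (horizontal axis); red marks members, grey other genes, filled symbols expressed and open ones not expressed. The lowest expressed grey point stands at -0.30, whereas Cpa3, Cma1, Mcpt8, Fcer1a and Ms4a2 lie below -0.5.

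Other genes of the same biology had list medians smaller in size than that of the members, and differed in both directions. Single genes could differ more, as Mcpt2 (-0.30) did than the members Hdc, Mcpt4 and Tpsab1. Of 8 measured proteases outside the members that mast cells are known to use or that lie in the same clusters, 5 were expressed, 2 higher and 3 lower, with a median of -0.15, or 0.022 with both arrays centred on the poly-A controls. They were Mcpt2, Gzmb, the cytotoxic protease granzyme B (-0.22), Tpsg1, a membrane-anchored tryptase (-0.15), Prss29 (0.13) and Ctsg. Of expressed genes 49.7% were higher. None of the 5 was past 0.5 in either direction, against 1.13% of expressed genes higher and 0.591% lower by that much. The same shares are the background for the counts of each list below.

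Surface and cytokine genes were split. Of 4 expressed mast cell surface and survival genes, 3 were higher and 1 lower (median 0.07), with Itgb7, an integrin chain of mucosal mast cells (0.13), and the tetraspanin Cd9 (0.12) above 0. Kit, the SCF receptor that defines mast cells and that progenitors also carry, had 524 on the knockout array and 542 on the wild-type array (-0.05), and its other probe set gave 0.18. Of 7 expressed basophil surface and cytokine genes 5 were higher and 2 lower (median 0.08). Cd200r3, an activating receptor of basophils and mast cells, stood with the members, at 35.6 on the knockout array and 56.2 on the wild-type array (-0.49), on 1 expressed probe set of 2. Il3ra, the IL-3 receptor alpha chain (0.20), Crlf2, the TSLP receptor (0.20), and Csf2rb2, the IL-3 receptor beta chain (0.19), were higher. The cytokines Il4 and Il13 were not expressed.

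Genes that fill, move and empty granules had a median near 0 on the deposited scale. Of 18 expressed genes of granule storage and exocytosis, 12 were higher and 6 lower, against 49.7% of expressed genes higher. None was past 0.5, and the median was 0.02, or 0.20 with both arrays centred on the poly-A controls. Rab27b, a Rab GTPase of mast cell granule release, was the lowest at -0.25, and Slc18a2, the transporter that loads histamine into granules, stood at -0.17. Vamp2, a fusion protein of vesicles (0.24), and Rab37 (0.16) were higher. Srgn, serglycin, on which the mast cell proteases are packed and which neutrophils also make, had 14535 on the knockout array and 13171 on the wild-type array (0.14). Of 3 expressed genes of histamine handling, Slc18a2 was lower and the receptor Hrh2 (0.30) and the degrading enzyme Hnmt (0.13) were higher.

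Signalling genes below the IgE receptor had a median of 0.05, or 0.22 with both arrays centred on the poly-A controls. All 22 measured genes of this list were expressed, 14 higher and 8 lower, against 49.7% of expressed genes higher. None was past 0.5. The adaptor Gab2, needed for mast cell degranulation in mice, stood at 0.40, the adaptor Lat2 at 0.34, the calcium sensor Stim1 at 0.32 and the exchange factor Vav1 at 0.25, with -0.07 on its other probe set. Of 16 expressed transcription factors of mast cells and basophils 9 were higher and 7 lower (median 0.02, and -0.00015 after quantile normalization), and Gata2 was the one lower by at least 0.5. Ikzf2 (-0.26, and -0.67 on its other expressed probe set) and Bhlhe40 (-0.24) were lower and Stat5a was higher (0.23). Of 8 expressed enzymes and receptors of lipid mediators 6 were higher and 2 lower (median 0.06), led by Alox5, the 5-lipoxygenase of leukotriene synthesis (0.45), and Tbxas1, thromboxane synthase (0.32). Most of these genes are known to act in neutrophils too.

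**Figure D5:**
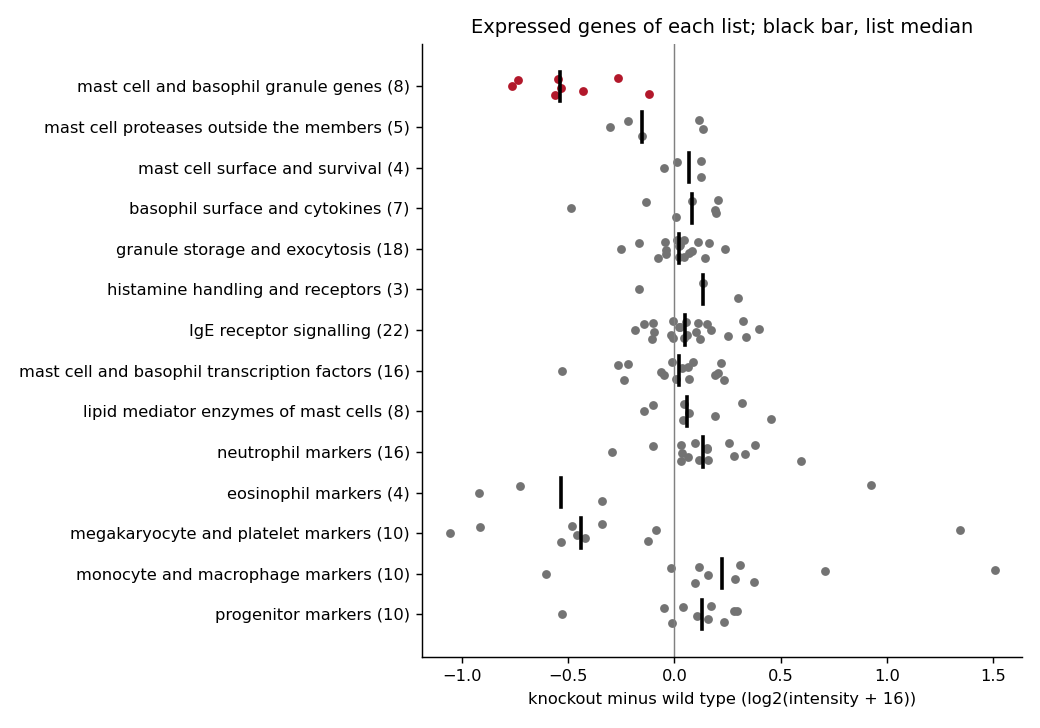
Difference of each expressed gene (horizontal axis, knockout minus wild type, log2(intensity + 16)) in the members (red) and in 13 other lists (grey), with the number of expressed genes in brackets and the list median as a black bar; the vertical scatter within a row only separates points. The member median of -0.54 over 8 expressed genes lies beside those of the eosinophil (-0.53) and the megakaryocyte and platelet markers (-0.44), and the medians of the other lists lie between -0.15 and 0.22.

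Markers of mast cells and basophils largely restate the members. Of 10 mast cell markers 8 are members. The other two, Kit (-0.05) and Mitf (0.03), were near 0. The 10 markers summed to 3371 on the knockout array and 4699 on the wild-type array. Of 5 measured basophil markers 4 are members, and the other one, Cd200r3, stood at -0.49. The sums of the 5 were 2645 on the knockout array and 3686 on the wild-type array. Both sets hold Fcer1a, Ms4a2 and Hdc, so mast cells and basophils are not separated by them.

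For the label neutrophil, 16 of 18 markers were measured and all 16 were expressed, 14 higher and 2 lower. Of all expressed genes 49.7% were higher. The markers had a median of 0.14 and sums of 211328 on the knockout array and 198425 on the wild-type array. Camp, a cathelicidin of specific granules, was the lowest (-0.29) and Cd177 the highest (0.59). Of 10 expressed progenitor markers 7 stood above 0 and 3 below it; their median was 0.13 and their sums were 8265 on the knockout array and 7495 on the wild-type array. The lower ones were Gata2 (-0.53), Kit (-0.05) and Sox4 (-0.01), and Flt3 was the highest (0.30).

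Markers of the eosinophil and the megakaryocyte lineage were mostly lower as well. Of 6 eosinophil markers 4 were expressed, with Ccr3 and Il5ra below the cut. The granule genes Epx (-0.34), Prg2 (-0.73) and Prg3 (-0.92) were lower, the lectin Siglecf was higher (0.92), and the summed intensity was 1006 on the knockout array and 1233 on the wild-type array. Of 10 expressed megakaryocyte and platelet markers 9 were lower and 1 was higher, against 50.1% of expressed genes lower. These markers had a median of -0.44 and sums of 1513 on the knockout array and 2301 on the wild-type array. Ppbp (-1.06) and Pf4 (-0.91), both platelet chemokines, were the lowest of them. The higher one was Itgb3, the integrin beta 3 chain, which had 205 on the knockout array and 71.1 on the wild-type array, a difference of 1.34, with 0.37 on its other expressed probe set.

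Most markers on the monocyte and macrophage list were higher. Of 10 expressed ones 8 stood above 0 and 2 below it, against 49.7% of expressed genes higher. The median was 0.22, and the 13 measured ones summed to 8354 on the knockout array and 7137 on the wild-type array. Apoe, apolipoprotein E, had 473 on the knockout array and 156 on the wild-type array, a difference of 1.51. Ly86, a partner of the receptor Cd180, was higher by 0.71, and the chemokine receptor gene Cx3cr1 was the lowest at -0.60. A narrower set of 5 markers was split, with 3 higher, 2 lower and a median of 0.10. It held Csf1r (0.10), Adgre1 (-0.02), Ccr2 (0.29), Cx3cr1 and Ms4a7 (0.12). The part of cell composition in the member differences was not tested.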

How the data were processed

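RNA of 1 miR-223 knockout and 1 wild-type culture was extracted with Trizol and labelled by the Affymetrix 3' IVT Express kit, per the labels' protocols, so signals come mainly from 3' ends. The values, as deposited, are 1 linear intensity for each probe set, made by steps that are not stated in the sources used here. They ran from 4.49 to 31305 on the knockout array and from 4.56 to 29262 on the wild-type array, with medians of 33.7 and 34.1, and were not rescaled. Joint normalization, if done, would hide a global RNA difference. Of 45101 probe sets, 64 were controls, 34945 had 1 annotated gene, 932 several and 9160 none. Symbols were updated by Entrez identifier to RefSeq (GRCm38.p6).

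Differences were taken on log2(intensity + 16) with Python 3.11.15, numpy 2.4.6 and pandas 2.3.3, and the procedure was tested on simulated data. No p-value was computed. The members and lists were chosen with earlier results of these data known. All members were named. Others were chosen from marker genes, the up to 4 expressed genes of the largest difference per other list, and neighbours that were nearest or past 0.5. Not every gene of these kinds was named. Fcer1g, Gata1, Tal1, Runx1, Srgn, Sox4, Il4 and Il13 were named after their values were seen. The alternatives changed the pseudocount (1 or 64), the scaling (median centring, quantiles, loess with span 0.3 in statsmodels 0.14.6, or poly-A controls), the choice of probe sets (their mean, or none of a shared suffix class) and the filter (the median or the 75th percentile). Leaving out Hdc was added after seeing the data.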

Additional observations from a re-analysis of the deposited data

How the results depend on the processing

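Apart from the alternatives named in this paragraph, the member median stayed between -0.56 and -0.50 and the counts stayed within 1.5 times. A pseudocount of 64 gave a median of -0.47 and left 3 members lower by at least 0.5. The share of all genes that low was not computed with this pseudocount or with centring on the poly-A controls. Centring on the poly-A controls gave a median of -0.36, 2 members lower by at least 0.5 and Tpsab1 at 0.056. That centring also moved the median of every other list up. It put neutrophil markers at 0.31 and megakaryocyte and platelet markers at -0.27. With a pseudocount of 64 the median of megakaryocyte and platelet markers was -0.26. Without shared suffix classes 5 members could be measured, all 5 of them lower, and Tpsb2 rested on its dim probe set at -0.20. No alternative put a member lower by 1 or more. Of 68 member differences under the alternatives, 67 were lower and 1 was reversed. These values come from the same genes on the same arrays. A changed pseudocount cannot reverse the sign of a probe set, so this count does not test the direction. A change was read against the SD between probe sets of a gene, 0.144, which is not a replicate error. No paired analysis was possible because each genotype has 1 array. Tpsab1 and Mcpt4 lay near the expression cut, where signal over background limits what can be read.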
